A study of Mus musculus with 6 samples.

Results

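Calcium/calmodulin-dependent kinases and neurogranin were followed as one group of 8 genes in the prefrontal cortex of Cyfip2 heterozygous mice: Camk2a, Camk2b, Camk2d, Camk2g, Camk2n1, Camk4, Camkk2 and Nrgn. The genes were taken by symbol from a table of 18160 genes, and all 8 were present and passed the filter on low values. The libraries came from prefrontal cortex of adult C57BL/6J mice at postnatal day 56, with 3 wild-type samples and 3 samples labelled as CYFIP2 heterozygotes. The CYFIP2 protein belongs to the WAVE regulatory complex, through which branched actin assembly is switched on. The kind of Cyfip2 mutation, the sex of the mice and whether samples came from separate animals are details not given in the sources used here, so p-values measure only the spread between these samples.

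CaMKII is among the most abundant proteins of the excitatory postsynapse. Calcium entering through NMDA receptors binds calmodulin, calmodulin opens the kinase, and the kinase then phosphorylates itself and stays active after calcium has dropped, which is a core step of long-term potentiation. Its holoenzyme is built from alpha (Camk2a), beta (Camk2b), gamma (Camk2g) and delta (Camk2d) subunits. Alpha and beta dominate in forebrain neurons, and beta also binds actin filaments. Camk2n1 encodes a small protein inhibitor of CaMKII, and Nrgn encodes neurogranin, which holds calmodulin near the membrane at low calcium. Camkk2 encodes a kinase that activates CaMKIV and AMPK, and Camk4 encodes CaMKIV, a nuclear kinase that phosphorylates the transcription factor CREB.

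Lower mean levels in heterozygotes were measured for 7 of the 8 genes, and none passed the test across all genes. The lowest levels relative to wild type were those of Camk2n1 (84.0%) and Nrgn (85.1%), followed by Camk4 (86.2%), Camkk2 (88.9%) and Camk2a (92.4%). Camk2g was at 96.6%, Camk2b at 99.6% and Camk2d, the only gene with a higher mean, at 109%. The median log2 fold change of the 8 genes was -0.14, against 0.0020 over the 15151 genes tested, of which 49.2% were lower in heterozygotes. By limma-trend with Benjamini-Hochberg adjustment over all tested genes, 0 of the 8 passed an adjusted p of 0.05, and 0.0132% of all tested genes did (2 genes). That whole-table count was 4 without wild-type sample 1 or heterozygous sample 3 and 1 without heterozygous sample 1, and the count among the 8 genes was 0 each time. At an unadjusted p under 0.05 there were 4 of 8, all lower, where 5.07% of tested genes passed in either direction and 2.71% were lower. The count was 3 without wild-type sample 1 or 3, and also 3 without the variance trend. Without heterozygous sample 2 it was 4, with Camk2a in place of Camk4. The samples of the genotypes did not overlap for 4 of the 8 (Camk2n1, Nrgn, Camkk2 and Camk2g), all lower, against 5.3% of tested genes that were lower without overlap. The genes were chosen with earlier results of these samples known, so these shares describe the group and do not test it.

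**Figure D1:**
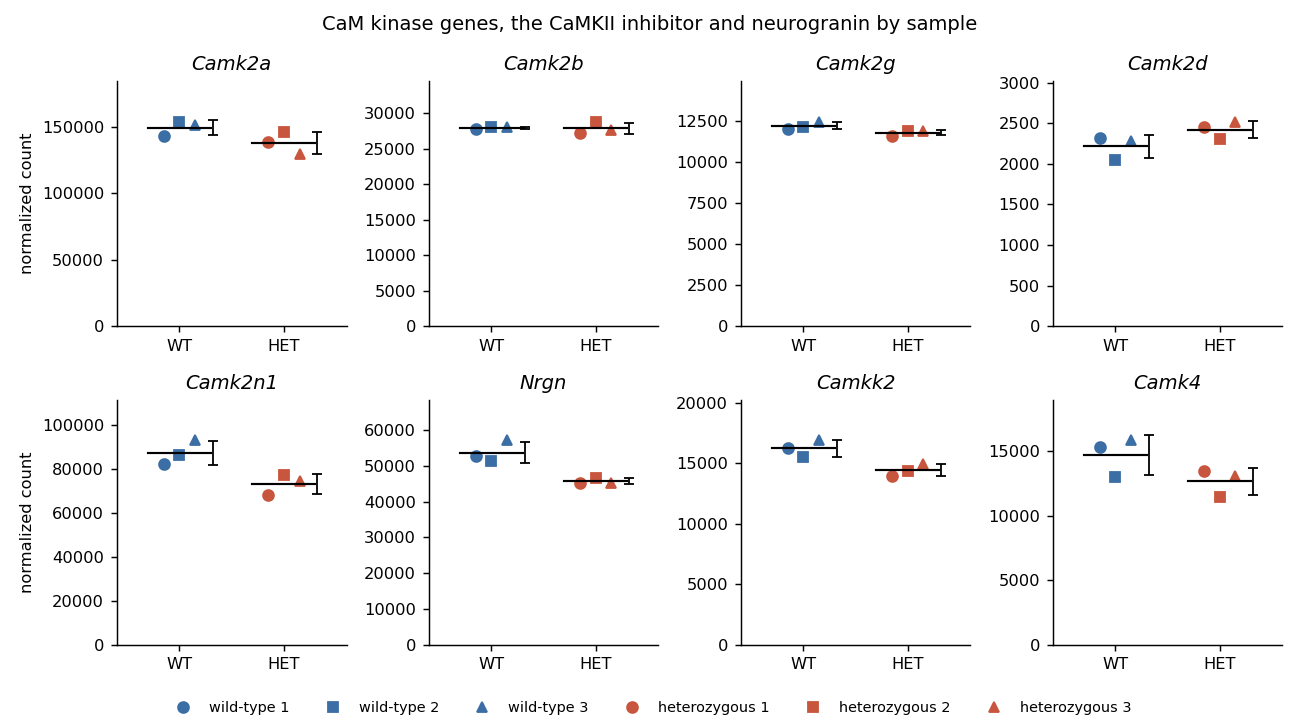
Normalized counts (linear axis from 0) of the 8 genes in each of 3 wild-type and 3 heterozygous samples, with the mean as a line and the SD as a bar (n = 3). The heterozygous points of Camk2n1, Nrgn, Camkk2 and Camk2g all lie below the wild-type points, and those of Camk2b lie on both sides of them.

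The targeted gene followed the labels. Cyfip2 was at 45454, 43174 and 45627 normalized counts in wild-type samples 1, 2 and 3 and at 28356, 28578 and 29567 in heterozygous samples 1, 2 and 3, an adjusted p of 0.0027 by limma-trend (0.15 by limma without the variance trend). Totals per sample were 36.4 to 37.1 M normalized counts, and the step between the lowest values put the depth at an estimated 27.2 to 48.0 M reads. The 8 genes lay between 2051 and 153504 normalized counts in every sample, far above the filter at a mean of 10. All 10 excitatory neuron markers were detected in every sample, the lowest being Neurod1 at a mean of 325. In bulk tissue, fewer cells of a type and less RNA per cell cannot be told apart.

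The RefSeq promoters of 4 of the 8 genes are shown, those that could be matched, so that genes of different levels can be set side by side: Nrgn and Camkk2 lay below wild type without overlap, Camk2b was at 99.6% and Camk2d at 109%. Sequences are from RefSeq on GRCm38.p6, 5′ to 3′ along the gene's own strand, and end just before a RefSeq start site. They cover chr9:37552905-37552995 (minus strand, Nrgn), chr5:122779411-122779660 (minus, Camkk2), chr11:6065749-6065998 (minus, Camk2b) and chr3:126596701-126596950 (plus, Camk2d). For Nrgn only the 91 bases farthest from the start are printed, since GENCODE M21 places the rest in a longer first exon. It also lists starts farther upstream for Camk2b and Camk2d. Capitals mark matches to the GC box GGGCGG or its reverse complement CCGCCC, a sequence bound by Sp1-family factors.
Nrgn: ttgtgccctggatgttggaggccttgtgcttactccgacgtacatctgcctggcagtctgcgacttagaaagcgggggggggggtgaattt
Camkk2: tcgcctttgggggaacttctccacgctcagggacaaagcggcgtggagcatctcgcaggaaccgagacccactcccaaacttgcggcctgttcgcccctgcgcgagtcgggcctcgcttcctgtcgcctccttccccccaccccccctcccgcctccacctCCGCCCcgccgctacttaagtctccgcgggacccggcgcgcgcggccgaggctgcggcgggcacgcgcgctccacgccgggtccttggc
Camk2b: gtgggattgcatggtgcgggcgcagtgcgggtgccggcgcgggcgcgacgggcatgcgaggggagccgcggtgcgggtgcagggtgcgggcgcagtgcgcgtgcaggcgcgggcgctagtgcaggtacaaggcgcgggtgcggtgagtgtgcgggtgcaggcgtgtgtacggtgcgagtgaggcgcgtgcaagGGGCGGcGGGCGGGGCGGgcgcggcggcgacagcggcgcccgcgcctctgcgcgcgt
Camk2d: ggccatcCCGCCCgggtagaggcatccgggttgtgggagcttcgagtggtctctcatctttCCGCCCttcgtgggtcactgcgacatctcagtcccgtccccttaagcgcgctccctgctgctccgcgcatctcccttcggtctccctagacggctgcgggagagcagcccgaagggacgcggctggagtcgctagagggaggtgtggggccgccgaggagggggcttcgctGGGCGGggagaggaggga

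The GC box was found 3 times upstream of Camk2b, where 2 of the matches share a base, 3 times upstream of Camk2d, once (1 match) upstream of Camkk2 and once (1 match) upstream of Nrgn, in the part not printed. Of 32851 RefSeq promoters, 32.7% held a GC box in the same 250 bases on either strand. The cyclic AMP response element TGACGTCA, the site CREB binds, was in none of the 4 windows, nor was its shorter core TGACG on either strand. Over all promoters these were found in 1.55% and 17.8%. A CCAAT box (CCAAT or ATTGG, 33.8% of all promoters) was found 15 bases before the start of Nrgn, also in the part not printed, and a TATA box (TATAAA or TTTATA, 12.4%) in none. The GC content of the 250 bases was 58.4% for Nrgn, 72.4% for Camkk2, 78.4% for Camk2b and 68.4% for Camk2d. Camk2a, Camk2g, Camk2n1 and Camk4 were not matched.

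Camk2a, on chromosome 18 at 60925618 to 60988152 (plus strand, GRCm38), encodes the alpha subunit. It was at 142718, 153504 and 150775 normalized counts in wild-type samples 1, 2 and 3 and at 138612, 145525 and 129070 in heterozygous samples 1, 2 and 3. The groups overlapped, since heterozygous sample 2 lay above wild-type sample 1, and heterozygous sample 3 was the lowest of all. The log2 fold change was -0.11 ± 0.06 (SE; interval -0.25 to 0.03; adjusted p = 0.95 by limma-trend). It was -0.068 without heterozygous sample 3.

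Camk2b, on chromosome 11 at 5969644 to 6066362 (minus strand), encodes the beta subunit that binds actin filaments. It shares its chromosome with Cyfip2 at a distance of 40.1 Mb. Wild-type samples 1, 2 and 3 were at 27751, 28016 and 28027 normalized counts, a coefficient of variation of 0.56%. Heterozygous samples were at 27154, 28771 and 27583, on both sides of the wild-type values. The log2 fold change was -0.0053, and its 95% interval of -0.11 to 0.10 covers levels of 92.6% to 107% of wild type (adjusted p = 0.997 by limma-trend, exact two-sided permutation p = 0.9).

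The gamma and delta subunit genes are expressed more widely through the body. Camk2g, on chromosome 14 at 20734875 to 20794088 (minus strand), was at 12024, 12170 and 12455 normalized counts in wild-type samples and at 11604, 11888 and 11901 in heterozygous samples. These groups did not overlap, but the highest heterozygous and lowest wild-type values were only 0.015 apart on the log2 scale. On that scale the genotypes differed by -0.05 ± 0.05 (SE, adjusted p = 0.97 by limma-trend). Camk2d, on chromosome 3 at 126596302 to 126846326 (plus strand), was the only gene with a higher mean in heterozygotes. Wild-type samples were at 2320, 2051 and 2281 normalized counts, and heterozygous samples at 2451, 2304 and 2520. The groups overlapped in that wild-type sample 1 lay above heterozygous sample 2, and wild-type sample 2 was the lowest. The log2 fold change was 0.13 ± 0.07 (SE, adjusted p = 0.95 by limma-trend) and 0.075 without wild-type sample 2.

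Levels can be compared between genes only per length of transcript. Per kilobase of the longest protein-coding transcript in GENCODE M21, Camk2a made up 73.8% ± 0.66 of the summed level of the 4 subunit genes in wild types and 72.4% ± 1.09 in heterozygotes (SD, n = 3 each). Camk2b made up 17.1% ± 0.41 and 18.1% ± 0.60, Camk2g 8.12% ± 0.18 and 8.34% ± 0.41, and Camk2d 0.99% ± 0.09 and 1.15% ± 0.10. The alpha subunit gene thus dominated in every sample. With the mean length of the protein-coding transcripts instead, the Camk2a share was 79.9% and 78.7%, so the shares depend on which transcripts are used and are approximate. Over all 8 genes, levels per kilobase of the longest transcript ran in the order Nrgn (31078 to 39340 over the 6 samples), Camk2a (25970 to 30886, just below the lowest Nrgn sample), Camk2n1 (15261 to 20888), Camk2b (6750 to 7152), Camk4 (4213 to 5837), Camk2g, Camkk2 and Camk2d. Camk2g (3134 to 3364) and Camkk2 (2873 to 3474) could not be ordered beyond their spread. Camk2d was the lowest, at 371 to 456. With the mean transcript length Camk2a stood first, at 64773 to 77034, and Nrgn second.

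Camk2n1 and Nrgn, the CaMKII inhibitor and the calmodulin buffer, had the smallest unadjusted p values of the group. Camk2n1, on chromosome 4 at 138454314 to 138460123 (plus strand), was at 82109, 85979 and 92827 normalized counts in wild-type samples 1, 2 and 3. In heterozygous samples it was at 67820, 77064 and 74185, each below every wild-type sample. The log2 fold change was -0.25 ± 0.07 (SE, interval -0.40 to -0.10). Its unadjusted p was 0.0039 and its adjusted p 0.74 by limma-trend. An exact two-sided permutation of the samples gave p = 0.1, the lower limit for 3 against 3. Leaving out 1 sample moved the fold change between -0.29 and -0.20.

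Nrgn, on chromosome 9 at 37544492 to 37552904 (minus strand), whose promoter is shown above, had the smallest p of the 8. Wild-type samples 1, 2 and 3 were at 52692, 51424 and 57160 normalized counts, and heterozygous samples at 45246, 46727 and 45156. The heterozygous samples were tight (coefficient of variation 1.93%) and all below wild type, with a gap of 0.14 on the log2 scale between the nearest samples, the widest gap of the 4 genes without overlap. The log2 fold change was -0.23 ± 0.06 (SE, interval -0.36 to -0.11), a level of 78.1% to 92.7% of wild type. Its unadjusted p was 0.0019 and its adjusted p 0.73 by limma-trend. Wild-type sample 3 was the highest, and without it the fold change was -0.19.

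Camkk2, an upstream kinase gene, lies on chromosome 5 at 122731170 to 122779409 (minus strand). It was at 16263, 15531 and 16885 normalized counts in wild-type samples and at 13964, 14361 and 14948 in heterozygous samples. Every heterozygous sample again lay below every wild-type sample. The log2 fold change was -0.17 ± 0.05 (SE, interval -0.29 to -0.05), with an unadjusted p of 0.0092 and an adjusted p of 0.85 by limma-trend. Camk4, its nuclear target kinase on chromosome 18 at 32934931 to 33191228 (plus strand), varied most between samples. It was at 15305, 12987 and 15858 normalized counts in wild-type and 13482, 11446 and 13070 in heterozygous samples. The groups overlapped because wild-type sample 2, the lowest of its genotype, lay below heterozygous samples 1 and 3. Its log2 fold change was -0.21 ± 0.09 (SE, unadjusted p = 0.031 and adjusted p = 0.95 by limma-trend). The fold change was -0.14 without heterozygous sample 2, -0.16 without wild-type sample 3 and -0.30 without wild-type sample 2, and the unadjusted p was 0.087 to 0.12 without wild-type sample 1, wild-type sample 3 or heterozygous sample 2. An antisense gene overlaps Camk4, and several gene models, 1 of them antisense, lie inside Camk2d. None of these has a row of its own in the table, and how reads were assigned there is a detail not given in the sources used here.

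**Figure D2:**
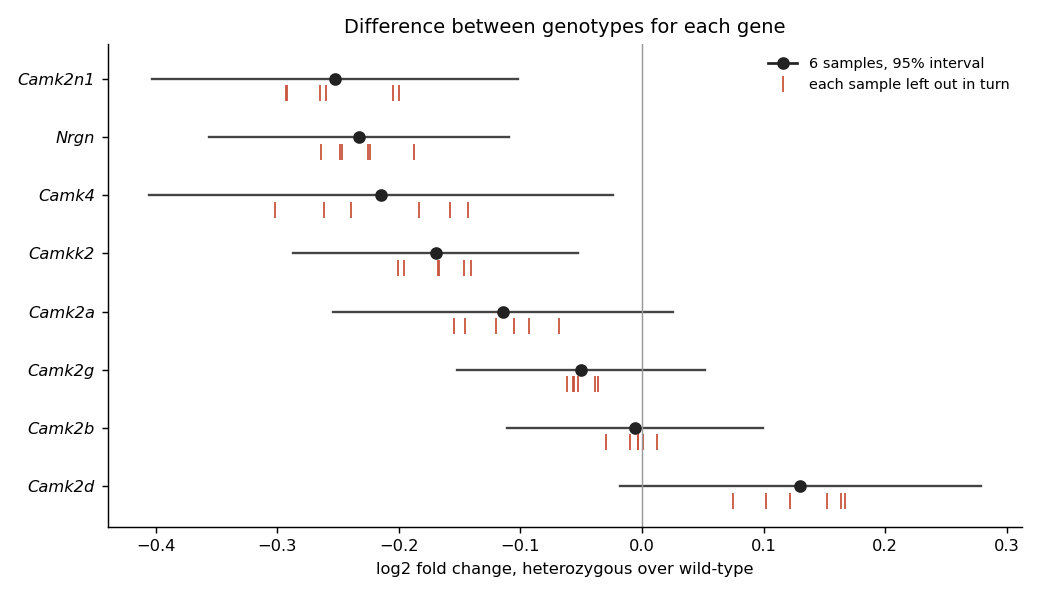
Log2 fold change (heterozygous over wild-type) of the 8 genes with 95% intervals from limma-trend, and red ticks for the value with each of the 6 samples left out in turn. The intervals of Camk2n1, Nrgn, Camk4 and Camkk2 lie below 0 before adjustment over all genes, and that of Camk2b (-0.11 to 0.10) is centred near 0.

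Ratios between genes of one sample do not depend on how samples were scaled, and 7 were compared by exact two-sided permutation tests with Benjamini-Hochberg adjustment over the 7. The log2 ratio of Camk2a to Camk2b was 2.36, 2.45 and 2.43 in wild-type samples 1, 2 and 3 and 2.35, 2.34 and 2.23 in heterozygous samples. It was the only one of the 7 without overlap, at a difference of -0.11 ± 0.05 (SE), an exact p of 0.1 and an adjusted p of 0.35. The gap rested on heterozygous sample 1 being just under wild-type sample 1, and without heterozygous sample 3 the difference was -0.069. The ratio of Camk2d to Camk2a differed by 0.24 ± 0.12 (SE, exact p = 0.2) and that of Camk2g to Camk2a by 0.064 ± 0.059 (SE, exact p = 0.5). Leaving out wild-type sample 2 brought the latter to 0.040, leaving out heterozygous sample 2 to 0.099, and leaving out heterozygous sample 3 to 0.012.

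The inhibitor and the calmodulin buffer were compared with the kinase in the same way. The log2 ratio of Camk2n1 to Camk2a was -0.80, -0.84 and -0.70 in wild-type and -1.03, -0.92 and -0.80 in heterozygous samples, a difference of -0.14 ± 0.08 (SE, exact p = 0.2, adjusted p = 0.35) that was -0.080 without heterozygous sample 1. Nrgn to Camk2a differed by -0.12 ± 0.07 (SE, exact p = 0.2, adjusted p = 0.35), and wild-type sample 2 lay below heterozygous sample 3. The kinase pair Camk4 to Camkk2 differed by -0.045 ± 0.098 (SE, exact p = 0.7), and by 0.023 without heterozygous sample 2. Camk2a set against the mean log2 level of 10 excitatory neuron markers differed by -0.047 ± 0.11 (SE, exact p = 0.7), and by 0.025 without wild-type sample 2 or heterozygous sample 3. The last of these was lowest in heterozygous sample 3 and highest in wild-type sample 2.

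**Figure D3:**
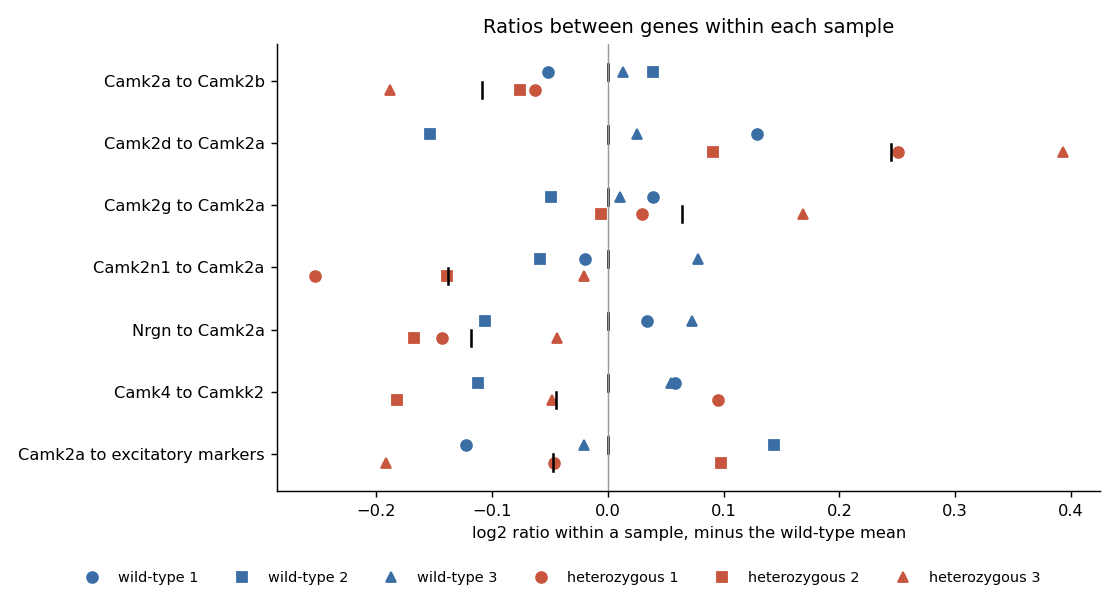
Log2 ratios between genes of the same sample, shown as the distance from the wild-type mean (x axis), for 7 ratios with 3 samples per genotype and the group means as black ticks. The Camk2a to Camk2b ratio is the only one whose red points all lie to one side of the blue points, at a mean difference of -0.11.

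Genes that act around the kinases were followed as 11 lists of 115 genes in all, every one of which was tested. By limma-trend, 0 of them had an adjusted p under 0.05. At an unadjusted p under 0.05 there were 8 (5 lower and 3 higher), which is 6.96% against 5.07% of all tested genes. Of these 8, Gap43 and Ppp1r1b stayed under 0.05 with each sample left out in turn, and the other 6 (Pnck, Ppp1r1a, Cacng2, Dlg4, Sipa1l1 and Rasa1) did not. The median log2 fold change was -0.022 over the 115 genes and between -0.050 and -0.00074 in the 11 lists, beside 0.0020 over all tested genes. With another scaling or a sample left out, the list median changed sign in 7 of the 11 lists. It stayed below 0 for calcineurin, the CaMKII anchors, the GTPase-activating proteins and AMPK. The sample number as a block cannot move a list median. The 8 kinase and neurogranin genes had a median of -0.14.

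Close relatives of the kinases did not share one direction: of 10 CaM kinase relatives and inhibitors, 5 were higher and 5 lower. Pnck, a CaM kinase I isoform gene, was at 1172, 1232 and 1198 normalized counts in wild-type and 1248, 1447 and 1337 in heterozygous samples, a log2 fold change of 0.16 ± 0.07 (SE, unadjusted p = 0.046). Without heterozygous sample 2, the highest, it was 0.11 (unadjusted p = 0.19). Dclk1, a doublecortin-like kinase gene, was at -0.064, and leaving out 1 sample gave values from -0.13 (wild-type sample 2) to -0.024 (heterozygous sample 2) and -0.014 (wild-type sample 1). Among 9 calmodulin genes and calmodulin buffers, 4 were higher and 5 lower. Gap43, which binds calmodulin through the same kind of motif as neurogranin but sits in axons, was at 3940, 3954 and 3822 in wild-type and 4293, 4544 and 4695 in heterozygous samples. All heterozygous samples were above wild type, at a log2 fold change of 0.21 ± 0.05 (SE, unadjusted p = 0.0033, adjusted p = 0.73 by limma-trend). How many tested genes were higher without overlap was not counted. Calm2, a calmodulin gene, was at 0.064 ± 0.070 (SE), and a single sample moved that value: it was about 0.017 or 0.016 with wild-type sample 2 or heterozygous sample 1 left out, and 0.12 or 0.11 with wild-type sample 1 or heterozygous sample 2 left out.

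Phosphatases oppose the kinases. Of 9 genes of calcineurin and its regulators, 8 were lower and 1 higher, with a median log2 fold change of -0.050. Ppp3ca, the main catalytic subunit gene in brain, was at -0.12 ± 0.06 (SE), and Rcan3, a calcineurin regulator gene, at 0.12 ± 0.08 (SE). Ppp3ca was at -0.076 without wild-type sample 3, and Rcan3 at 0.057 without heterozygous sample 2. Of 11 genes of other phosphatases and their regulators, 7 were lower and 4 higher, with a median of -0.0099. Ppp1r1b (DARPP-32) and Ppp1r1a (inhibitor-1), both inhibitors of protein phosphatase 1, had the smallest p. Ppp1r1b was at 2982, 3305 and 2927 normalized counts in wild-type and 2247, 2587 and 2443 in heterozygous samples. The genotypes differed by a log2 fold change of -0.34 ± 0.07 (SE, unadjusted p = 7.8e-04, adjusted p = 0.67 by limma-trend). Ppp1r1a was at -0.16 ± 0.06 (SE). In both genes every heterozygous sample lay below every wild-type sample, as in 5.3% of tested genes. The nearest samples were 0.18 apart on the log2 scale for Ppp1r1b but only 0.011 for Ppp1r1a.

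Anchors and substrates of CaMKII at the synapse were lower for 11 of 15 genes, with a median log2 fold change of -0.049. Cacng2, an AMPA receptor auxiliary subunit, was at -0.19 ± 0.06 (SE). Dlg4 (PSD-95), the main scaffold of the postsynaptic density, was at 32361, 32262 and 32993 normalized counts in wild-type and 29574, 31158 and 29717 in heterozygous samples, a log2 fold change of -0.11 ± 0.05 (SE, unadjusted p = 0.043). Synaptic CaMKII also acts on Ras and Rap GTPases through their regulators. Exchange factors had 3 genes higher and 6 lower (median -0.026), with Rapgef4 at 0.099 ± 0.052 and Rasgrf1 at 0.081 ± 0.050 (SE, 0.053 without wild-type sample 2). GTPase-activating proteins had 3 higher and 7 lower (median -0.028). The spine protein gene Sipa1l1 was at -0.14 ± 0.06 (SE, unadjusted p = 0.031 by limma-trend) and Rasa1 at 0.21 ± 0.08 (SE, unadjusted p = 0.034 by limma-trend). Both were without overlap between genotypes and in opposite directions, but the nearest Sipa1l1 samples were only 0.0064 apart on the log2 scale. Of all tested genes 5.3% were lower without overlap, and the share higher without overlap was not counted. Wild-type sample 2 was the lowest for Rasa1, and without it the value was 0.11 (unadjusted p = 0.13).

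Downstream of these, differences were small, and most of those named moved with 1 sample left out. The 12 Ras and Rap GTPases had 4 higher and 8 lower, with Mras at -0.060 ± 0.064 (SE), between -0.11 when wild-type sample 2 was left out and -0.016 when heterozygous sample 2 was. The 12 genes of the Raf-MEK-ERK cascade had 4 higher and 8 lower, with the scaffold gene Ksr1 at -0.11 ± 0.06 and Mapk3 (ERK1) at 0.092 ± 0.074 (SE). Mapk3 was at 0.043 without wild-type sample 1 and at 0.15 without wild-type sample 2 or heterozygous sample 1. Of 9 genes for CREB and its coactivators, the factors downstream of CaMKIV, 4 were higher and 5 lower, with Atf1 at 0.15 ± 0.12 and Crebbp at -0.065 ± 0.058 (SE). Atf1 was at 0.049 without heterozygous sample 2 and 0.26 without heterozygous sample 1, and Crebbp at -0.025 without wild-type sample 3. For AMPK, a target of CaMKK2, 2 of 9 genes were higher and 7 lower, with Prkab2 at -0.11 ± 0.07 and Prkab1 at -0.11 ± 0.08 (SE). Prkab2 was at -0.046 without wild-type sample 1, and Prkab1 at -0.059 without heterozygous sample 1. With all 6 samples, no gene of these 4 lists reached an unadjusted p of 0.05.

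**Figure D4:**
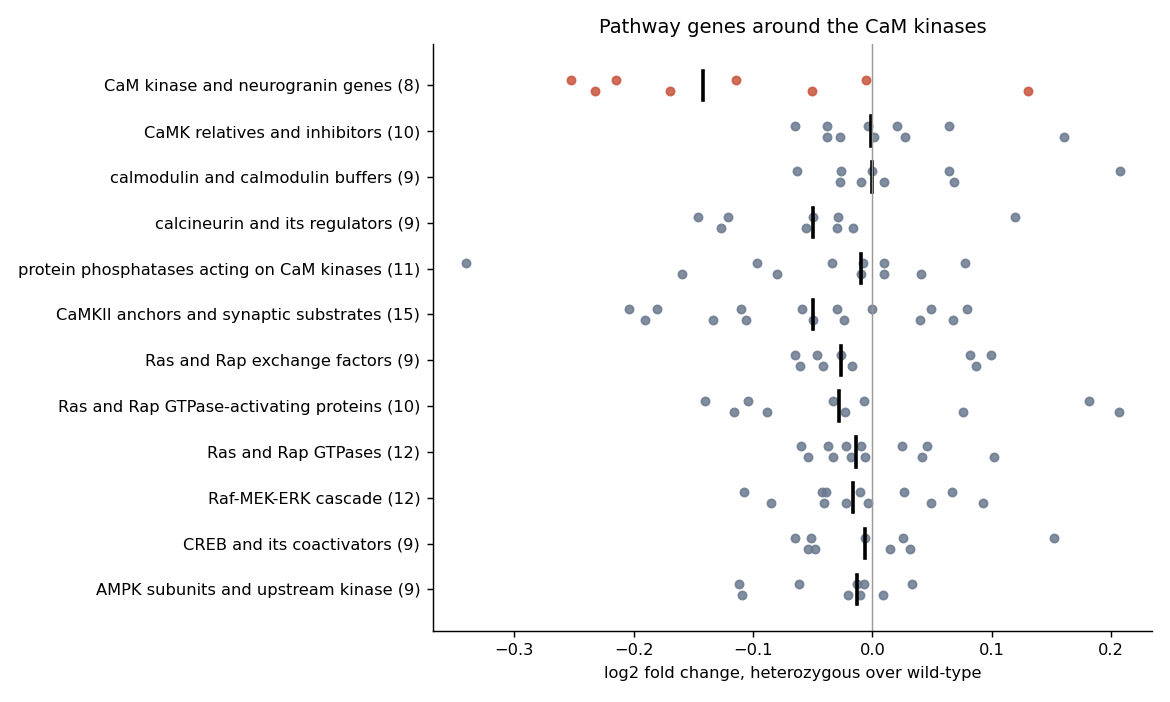
Log2 fold changes (x axis) of the 8 CaM kinase and neurogranin genes (red) and of 115 genes in 11 pathway lists (grey, list size in brackets), with the median of each row as a black bar. The median of the red row is -0.14, and those of the lists lie between -0.050 and -0.00074.

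The most similar patterns over the 6 samples were sought among genes with a mean of at least 500, by the mean absolute difference of log2 deviations (smaller is closer). This measure describes these 6 samples only. Nearest to Nrgn were Cdk5r2, an activator gene of the neuronal kinase CDK5, at 0.025, and Bivm at 0.025. Nearest to Camk2n1 were Cabp1, a neuronal calcium-binding protein gene, at 0.028, and Chrdl1 at 0.029. Camkk2 lay nearest to Drc1 (0.011) and Castor2 (0.014), and Camk4 to Stim2, a calcium sensor of the endoplasmic reticulum, and Gpr26 (0.024 each). Camk2a lay nearest to Pomt1 (0.021) and Senp3 (0.023), Camk2g to Ppp6r2 (0.0090) and Fchsd2 (0.0096), and Camk2d to March1 (0.018) and Mfsd1 (0.019). Camk2b, which varied least, lay nearest to Limk2, a kinase gene for cofilin, at 0.0061, and to Syn1, a presynaptic substrate of CaMKII, at 0.0065.

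Marker lists of 10 genes each were measured beside the group. Of the 10 excitatory neuron markers 7 were lower, and their summed level overlapped between genotypes, at 99149 to 111732 normalized counts in wild-type and 98779 to 103936 in heterozygous samples. The list mean was low in sample 2 of both genotypes (-0.07 and -0.10 on the log2 scale, relative to the mean of all samples), as Camk4 was (-0.07 and -0.25). Camk2d was also lowest there within each genotype (-0.18 and -0.01), whereas Camk2a was highest (0.10 and 0.02). Striatal neuron markers, a sign of neighbouring tissue, were lower for 7 of 10, and their summed level was 12278 to 13578 in wild-type and 10737 to 11507 in heterozygous samples, without overlap. Ppp1r1b stands in that list as well as among the phosphatase regulators. The list mean was highest in wild-type sample 2 (0.28). In that sample Nrgn (0.05), Camkk2 (0.02), Camk4 (-0.07) and Camk2d (-0.18) were the lowest of the wild-type samples. Camk2a (0.10) was the highest of them there, and Camk2n1 (0.11), Camk2g (0.02) and Camk2b (0.0071) lay between. Interneuron markers were higher for 8 of 10, with summed levels of 43394 to 46474 and 47224 to 48315, also without overlap. No marker of these 3 lists was at 0 in any sample. Their part in the levels of the kinase genes was not tested.

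Glial and vascular lists overlapped between genotypes in their summed level. Oligodendrocyte markers were lower for 10 of 10 genes, at sums of 134781 to 187846 in wild-type and 131432 to 142711 in heterozygous samples, with the highest value in wild-type sample 2. Astrocyte markers were higher for 8 of 10 (183937 to 215947 and 195815 to 214697), microglia markers for 7 of 10 (12900 to 15995 and 14410 to 15192) and endothelial and pericyte markers for 9 of 10 (9806 to 12208 and 11202 to 12683). Meningeal and fibroblast markers were higher for 8 of 10 (5754 to 7019 and 6631 to 7495). Wild-type sample 1 held the lowest sum of these last 4 lists. In that sample Nrgn, Camkk2 and Camk4 lay between the other wild-type samples. Camk2a, Camk2b, Camk2g and Camk2n1 were the lowest of the wild-type samples there, and Camk2d was the highest. None of these markers was at 0, and their part was not tested.

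**Figure D5:**
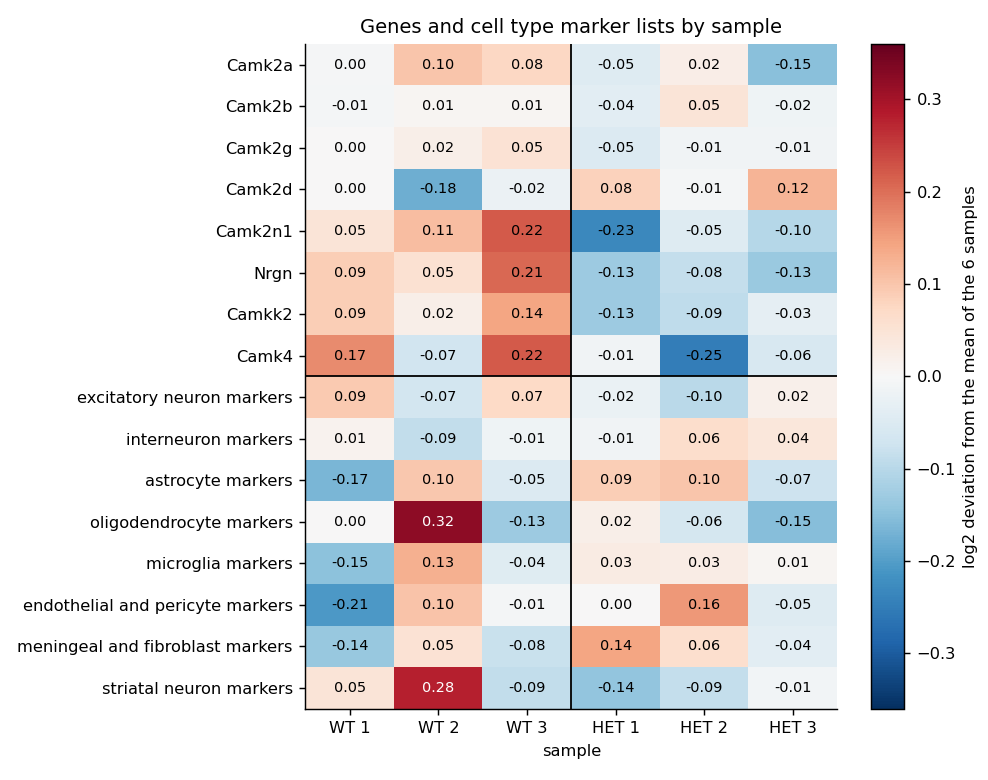
Log2 deviation of each gene, and of the mean of each marker list, from the mean of the 6 samples (colour and printed value), with wild-type samples left and heterozygous samples right of the line. Nrgn, Camk2n1, Camkk2 and Camk2g (0.0023 in wild-type sample 1) are above 0 in every wild-type and below 0 in every heterozygous sample. The mean of every marker list overlaps between genotypes, but the summed levels of the striatal and interneuron lists (not drawn) did not.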

How the data were processed

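Gene expression was measured in 6 prefrontal cortex libraries made with a stranded, poly(A)-selecting kit, per the labels' protocols. Genotype and sample number came from the titles. The authors deposited a normalized signal per gene (normalized counts, not whole reads). The submitters' processing notes name Salmon 0.11.2, R 3.6.0, DESeq2 1.19.11 and GRCm38 but give no roles, and the annotation release and gene filter are details not given in the sources used here. Low values clustered at a step per sample: within 0.1 reads, 84.4% to 87.0% of values up to 2 reads were whole, but 19.9% to 43.0% of those of 10 to 20 reads, so whole reads were not recovered and depth is an estimate.

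A table of gene identifiers supplied the symbols (18122 of 18160 matched), and GENCODE M21 on GRCm38 the positions and transcript lengths. log2(value + 1) was fitted by limma 3.58.1 in R 4.3.3 (trend, genotype as the only term) for 15151 genes with a mean of at least 10, with Benjamini-Hochberg adjustment over all of them and a threshold of 0.05. The design foresaw raw or normalized values, and the branch for normalized values was followed. Intervals are 95% intervals of that model. The pseudocount of 1 makes little difference at these levels on that log2 scale. Ratios used exact permutation tests in Python 3.11.15. The limma fit was run first on simulated normalized values with planted changes, which did not cover the ratio tests.

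The 8 genes and the 11 pathway and 8 marker lists were chosen with earlier results of these data known. Some further genes of the group and lists are not reported here. Named were the 8 genes, Cyfip2, from each pathway list the genes past the threshold or otherwise the 2 with the smallest p at a mean of at least 50, and for each of the 8 the 2 genes of most similar pattern, with at least the gene's own SD divided by 2. Neurod1 was named as the lowest marker of its list. The fit was repeated after rescaling by trimmed means of M values, with no trend, with robust shrinkage, with the filter dropped or raised to 50, with a pseudocount of 0.5 or 5, with a block for sample number, without each sample in turn, and at a threshold of 0.1. Array weights and the mean transcript length were added after seeing the data.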

Additional observations from a re-analysis of the deposited data

How the results depend on the processing

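None of the 8 kinase and neurogranin genes passed an adjusted p of 0.05 under any of the 15 alternative fits by limma, nor at a threshold of 0.1, and the same held for the 115 pathway genes. Of 128 alternative fold changes of the 8 genes, 126 kept their direction and side of the threshold. The other 2 were those of Camk2b, whose fold change ran from -0.029 to 0.012 with a sample left out and was 0.0010 without heterozygous sample 3. Dropping the trend, robust shrinkage, another filter, the block and the threshold of 0.1 cannot change a fold change. For those settings only the side of the threshold could move. The fold changes ran from -0.29 to -0.20 for Camk2n1, -0.26 to -0.19 for Nrgn, -0.20 to -0.14 for Camkk2 and -0.30 to -0.14 for Camk4. Over all genes, 2 passed, against 1 without the variance trend, 1 with a mean of at least 50, and 1 to 4 with a sample left out. Cyfip2 lost its call without the trend (adjusted p = 0.15 by limma). With a sample left out, the Camk4 to Camkk2 ratio differed by -0.12 to 0.023 and the Camk2a to excitatory marker ratio by -0.12 to 0.025, so neither has a settled direction. Causes were not tested.

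Whether samples with the same number shared a batch or were paired is a detail not given in the sources used here. Their deviations correlated at -0.0052 to 0.13 over 15151 genes, against -0.16 to 0.046 for samples of different number. Of the 6 samples, 4 correlated best with their own number. Each number holds 1 sample of each genotype, so the replicate block cannot change a fold change, and that of Nrgn was again -0.23. With the block, adjusted p values of the 8 genes by limma were 0.20 to 0.98. At an unadjusted p under 0.05 there were then 6 of the 8 genes and 1363 of all genes, against 4 and 768 without it. The 3 pairs cannot give a sign-flip p under 0.25 for a ratio. How far depth limits the comparison was not tested.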

Other observations

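The calmodulin-binding genes Gap43 and Nrgn were set side by side after their values were seen, since both encode proteins that hold calmodulin at low calcium, one in axons and the other in dendrites. The log2 ratio of Gap43 to Nrgn was -3.74, -3.70 and -3.90 in wild-type samples 1, 2 and 3 and -3.40, -3.36 and -3.27 in heterozygous samples. The ratio was 1.36 times as high in heterozygotes, a difference of 0.44 on the log2 scale, and the nearest samples of the genotypes were 0.30 apart. As the pair was picked for this difference, no test is given.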
